A study of Mus musculus with 2 samples.

Results

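Adipocyte genes are described here as the 10 rows of the deposited mouse expression table whose symbol is Adipoq, Lep, Cfd, Pparg, Fabp4, Lpl, Plin1, Plin4, Cidec or Ucp1, out of 45777 rows in all. They were read in 1 RNA-seq library of a teratoma grown from E14 cells and 1 library of a teratoma grown from E14-Sox2TA/WT cells. E14 is a mouse embryonic stem cell (ESC) line with wild-type Sox2. E14-Sox2TA/WT cells are E14 cells in which CRISPR/Cas9 editing changed threonine 258 of Sox2 to alanine on 1 allele, grown as clones from single cells. The cells were inoculated under the skin of BALB/c-nu mice, with 3 mice per group, and the tumours were taken 14 days later. Whether a library came from a single teratoma or a single clone is not stated, and the labels give teratoma as the tissue but mention RNA of the stem cell line in their protocol. With 1 library per group no difference has a replicate check. Reads of the host and of the inoculated cells are counted together, so the subcutaneous fat of the host and fat cells of the tumour cannot be told apart. In a bulk sample, fewer cells of a type and less RNA per cell cannot be told apart either. Values given as a pair are in the order E14, then E14-Sox2TA/WT.

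White adipocytes store triglyceride in a large lipid droplet and release hormones, the adipokines, into the blood. The nuclear receptor Pparg drives their differentiation together with C/EBP factors and switches on genes for fatty acid uptake, droplet coating and secretion. Brown and beige adipocytes burn fat through Ucp1 in the mitochondrial membrane. Several of these genes are not restricted to fat: Fabp4 is also made by capillary endothelium and macrophages, and Lpl by muscle and macrophages.

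Most adipocyte genes were higher in the teratoma with the edited Sox2 allele, and most were scarce in both libraries. Adipoq, Lep and Plin1, which mark the mature fat cell, had 0, 0 and 6 reads in E14 and 83, 17 and 17 in E14-Sox2TA/WT. Levels are given as TPM, the share of transcripts after scaling by transcript length, and folds are ratios of TPM with a 95% Clopper-Pearson interval of the read counts, which covers counting error only. Under the rule of the study's methods, a fold above 2 among genes that reach TPM 10 in either library, 2 of the 10 genes could be called. These were Fabp4 and Lpl, both above TPM 10 in both libraries and both higher, where 10.8% of all 11578 genes tested were called higher and 18.7% lower. The paper reports fewer genes in each direction than the rule called as applied here, so its counts were not reproduced. The reason for the gap was not tested. Without a TPM filter, 8 of the 10 genes were above 2-fold higher, 1 (Ucp1) was above 2-fold lower and Plin4 was at neither. Of all 29148 genes with any read, 31.4% were above 2-fold higher and 20.6% lower. The whole counting interval lay above equal TPM for 7 of the 10 genes, against 36.0% of genes with any read, and below it for 1, against 34.0%. The median log2 ratio of the 10 genes, with 1 added to each TPM, was 1.22. It was 0.03 over all genes with any read. With the 3 genes that had no reads in the E14 library set at their lower bounds and no pseudocount, the median was 1.79.

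In the E14 library the order of levels began with Fabp4 and Lpl, followed by Pparg and Ucp1, then Plin4, Plin1 and Cidec, with Adipoq, Lep and Cfd at 0 reads. Counting intervals overlapped between Pparg and Ucp1, between Plin4 and Plin1 and between Plin1 and Cidec. In the E14-Sox2TA/WT library the order was Fabp4, Lpl, Cfd, Pparg, Adipoq, Cidec, Plin4, Plin1, Ucp1 and Lep. There the intervals of Pparg, Adipoq and Cidec overlapped from neighbour to neighbour, as did those of the last 4 genes. The summed TPM of the 10 genes was 39.1 and 128. Fabp4 and Lpl held 94.7% and 86.1% of these sums. The other 8 genes together went from a TPM of 2.06 to 17.8.

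**Figure D1:**
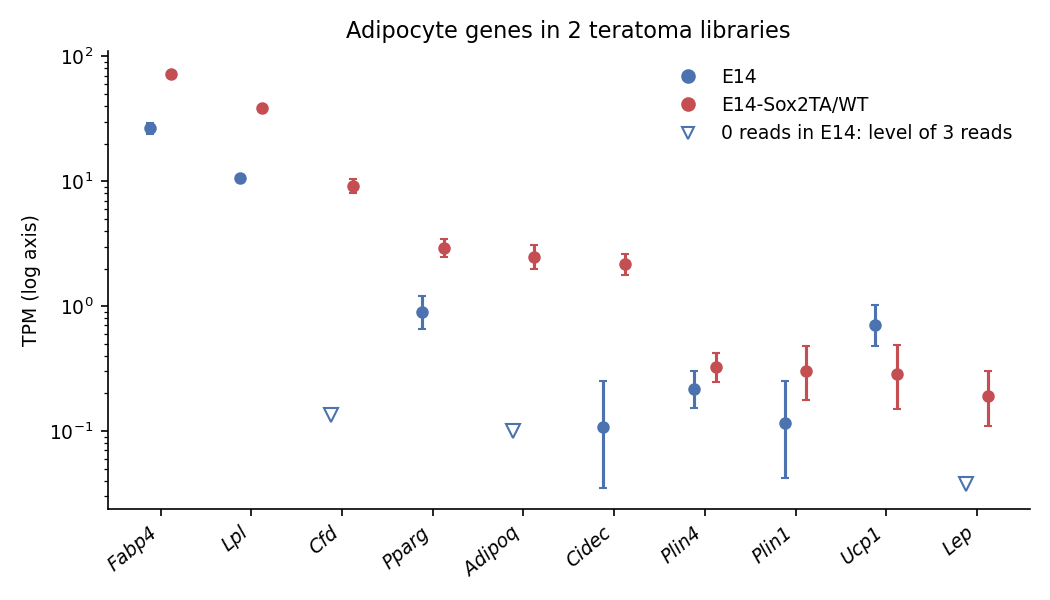
TPM of each adipocyte gene (log axis) in the E14 library (blue) and the E14-Sox2TA/WT library (red), with exact 95% Poisson intervals of the read counts. Open triangles mark the level that 3 reads would give for Cfd, Adipoq and Lep, which had 0 reads in the E14 library. Fabp4 and Lpl are the only genes above TPM 10 in either library.

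Adipoq, Lep and Cfd encode secreted proteins. Adiponectin, the product of Adipoq, acts on liver and muscle, leptin (Lep) reports fat stores to the brain, and adipsin (Cfd) is a serine protease of the alternative complement pathway. Cfd had 0 and 227 reads, and its TPM was 9.15 (8.0 to 10.4) where it was detected. Against a floor of 3 reads for a count of 0, it was at least 67.8-fold higher. Bounds of this kind leave out the counting error of the E14-Sox2TA/WT count. Adipoq had 0 and 83 reads, a TPM of 2.48 (1.98 to 3.08) in the latter, and was at least 24.8-fold higher. Lep had 0 and 17 reads and was at least 5.07-fold higher, at a TPM of 0.190 (0.111 to 0.305). All 3 adipokine genes were thus seen in 1 library alone, at levels from below TPM 1 to just under 10.

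Absence from the E14 library was more frequent than the reverse for genes in general. Of 23055 genes with at least 10 reads in 1 library, 6.85% were at 0 in E14 and 0.989% at 0 in E14-Sox2TA/WT. Of 16897 genes with at least 83 reads, the level of Adipoq, the shares were 1.02% and 0.0769%. Of 14621 genes with at least 227 reads, the level of Cfd, the shares were 0.294% and 0.0410%. At 17 reads or more, the level of Lep, the shares were 4.57% and 0.414%. Of all rows, 21174 and 17947 were at 0 reads.

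On GRCm38, the assembly also named mm10, Adipoq lies on chromosome 16 from 23146536 to 23157968, Cfd on chromosome 10 from 79890853 to 79892655 and Lep on chromosome 6 from 29060221 to 29073876. Plin1 lies on chromosome 7 from 79721164 to 79732904.

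The promoters of the 3 genes without reads in the E14 library, and of Ucp1, the gene with the opposite direction, are shown to compare their motifs. RefSeq promoters on GRCm38.p6, from 250 bases before the start to 50 after it, were found for 8 of the 10 genes, and none was found for Fabp4 and Lpl. Capitals mark matches on either strand to CCAAT, to the C/EBP element TTGCNNAA or to the nuclear receptor site AGGTCA. The plus-strand regions are chr16:23146286-23146585 for Adipoq, chr10:79890603-79890902 for Cfd, chr6:29059971-29060270 for Lep and chr8:83290098-83290397 for Ucp1.
Adipoq: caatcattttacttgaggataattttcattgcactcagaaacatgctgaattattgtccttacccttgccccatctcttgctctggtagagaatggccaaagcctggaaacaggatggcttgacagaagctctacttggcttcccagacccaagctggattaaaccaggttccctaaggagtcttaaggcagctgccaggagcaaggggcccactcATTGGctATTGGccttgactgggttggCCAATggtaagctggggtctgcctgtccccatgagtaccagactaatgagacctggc
Cfd: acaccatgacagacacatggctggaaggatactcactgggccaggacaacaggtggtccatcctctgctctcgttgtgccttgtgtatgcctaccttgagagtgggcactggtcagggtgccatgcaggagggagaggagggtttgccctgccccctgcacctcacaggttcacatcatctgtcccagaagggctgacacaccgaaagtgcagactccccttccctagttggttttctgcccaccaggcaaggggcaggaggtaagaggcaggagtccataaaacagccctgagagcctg
Lep: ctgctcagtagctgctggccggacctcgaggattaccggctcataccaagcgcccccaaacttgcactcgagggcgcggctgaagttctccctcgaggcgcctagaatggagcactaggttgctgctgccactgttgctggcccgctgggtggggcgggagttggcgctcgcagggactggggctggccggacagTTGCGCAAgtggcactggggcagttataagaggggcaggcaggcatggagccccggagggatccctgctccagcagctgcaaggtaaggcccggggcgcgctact
Ucp1: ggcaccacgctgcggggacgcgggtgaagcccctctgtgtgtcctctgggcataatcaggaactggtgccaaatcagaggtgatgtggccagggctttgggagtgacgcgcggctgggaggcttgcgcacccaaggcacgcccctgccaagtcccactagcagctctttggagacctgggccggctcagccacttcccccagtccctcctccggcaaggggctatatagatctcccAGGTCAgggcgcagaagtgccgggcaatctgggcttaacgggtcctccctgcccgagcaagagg

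CCAAT occurred 3 times in the Adipoq promoter, with first bases 34, 27 and 7 bases before the start, and was also in the Plin4 promoter and in 2 of 3 Pparg promoters, whereas 37.4% of all 32851 promoters held it. TTGCNNAA occurred in the Lep promoter 55 bases before the start, where both strands match, in promoters of Cidec, Plin1 and Pparg, and in 10.8% of all promoters. AGGTCA occurred in the Ucp1 promoter 14 bases before the start and in 2 of the 3 Pparg promoters, as in 16.3% of all promoters. TATAAA occurred in 1 promoter of Pparg and in 13.6% of all. The Cfd promoter held none of these letters. A direct repeat of AGGTCA with 1 base between the copies, the DR1 element that Pparg and its partner Rxra bind, was in none of the promoters found for the 8 genes and in 0.0396% of all. These matches describe the letters in this window and no more.

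Fabp4, which carries fatty acids inside the cell, and Lpl, the lipase that frees fatty acids from circulating triglyceride, were the most abundant members. Fabp4 had 436 and 1310 reads. Its TPM went from 26.5 (24.1 to 29.1) to 71.5 (67.7 to 75.5), 2.70-fold higher (2.42 to 3.02). Lpl had 1030 and 4229 reads, and its TPM went from 10.6 (9.93 to 11.2) to 38.9 (37.7 to 40.1), 3.68-fold higher (3.44 to 3.94). The counting intervals of the libraries did not overlap for either gene, and 8.27% and 4.91% of the 18558 genes that reach TPM 1 in either library had a log2 ratio as high. Fabp4 lies on chromosome 3 from 10204342 to 10208616, between Fabp9 with 0 and 4 reads and Fabp12 with 0 reads in both. Lpl lies on chromosome 8 from 68880555 to 68906932, a chromosome whose 925 genes above that limit had a median log2 ratio of -0.48. The log2 ratio of Lpl was 1.79, and 2.27 relative to its chromosome. Transcript length also moved with the ratio across genes. Genes with transcripts as short as that of Fabp4 had a median log2 ratio of 0.40, and the log2 ratio of Fabp4, 1.40, was 1.0 relative to them. Relative to genes of like length, the log2 ratio also moved down for Cfd (3.34 to 3.10) and Adipoq (1.80 to 1.56). It moved up for Lpl (1.79 to 2.03), Plin4 (0.12 to 0.66) and Lep (0.25 to 0.43).

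Pparg, the regulator, had 44 and 153 reads. Its TPM went from 0.900 (0.654 to 1.21) to 2.92 (2.48 to 3.43), 3.25-fold higher (2.31 to 4.65), and the intervals of the 2 levels did not overlap. The gene spans 115360879 to 115490404 on chromosome 6.

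**Figure D2:**
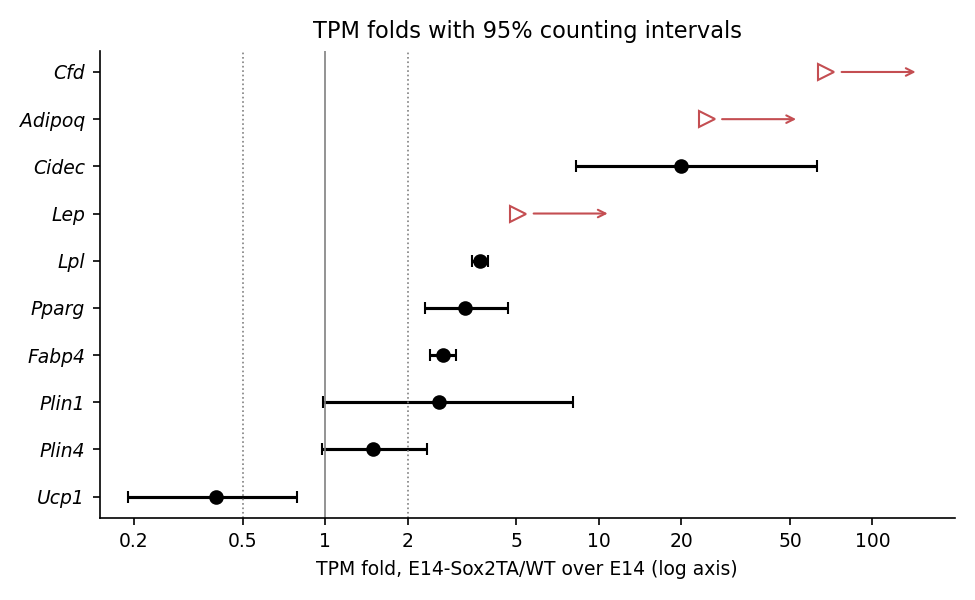
TPM fold of each adipocyte gene, E14-Sox2TA/WT over E14 (log axis), with 95% counting intervals. Open triangles with arrows are lower bounds, without the counting error of the E14-Sox2TA/WT count, for genes with 0 reads in the E14 library. Dotted lines mark 2-fold. Cfd and Adipoq, with lower bounds of 67.8 and 24.8, and Cidec at 19.9 lie farthest to the right, and Ucp1 alone lies below 1.

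The lipid droplet genes differed among themselves. Cidec, whose product fuses droplets into a large one, had 5 and 106 reads. Its TPM went from 0.108 (0.0352 to 0.253) to 2.16 (1.77 to 2.61), 19.9-fold higher (8.27 to 62.6). Plin1, the coat protein that guards the adipocyte droplet from lipases, had 6 and 17 reads, a fold of 2.61 whose interval included 1 (0.981 to 8.08). Plin4, another coat protein, had 35 and 58 reads, a fold of 1.5 (0.970 to 2.35). Only for Cidec did the counting intervals of the libraries stand apart. At 6 to 58 reads, the counting intervals of Plin1 and Plin4 did not separate their folds from equal levels. Plin4 on chromosome 17 (56100587 to 56109948) shares 19 bases with Hdgfl2, which had 4424 and 3706 reads. The use of strand in counting is not stated, and whether reads of these bases entered the value of Plin4 was not tested. Cidec (chromosome 6, 113424634 to 113435760) overlaps the noncoding Gm52871, which had 0 reads in both libraries.

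Ucp1, the uncoupling protein of brown and beige fat, was the member that was lower. It had 29 and 13 reads, and its TPM went from 0.713 (0.477 to 1.02) to 0.284 (0.151 to 0.486). This was 2.51-fold lower (1.26 to 5.26), and the counting intervals of the 2 levels overlapped slightly. Ucp1 lies on chromosome 8 as Lpl does (83290348 to 83298456). Its log2 fold without a pseudocount was -1.33, and -0.84 relative to the median of that chromosome. With 1 added to each TPM, the log2 ratio was -0.42, and 0.068 relative to the chromosome, where its sign changed.

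Some relatives of these genes with a wider tissue range were far more abundant. Plin2 and Plin3, which coat droplets in most cells, had TPM of 40.7 and 88.6, and of 42.1 and 81.0, 2.18-fold (2.06 to 2.30) and 1.93-fold (1.83 to 2.03) higher. Plin5, typical of oxidative tissue, had 40 and 112 reads. Fabp3, the heart form, went from TPM 48.7 to 227, 4.65-fold higher (4.31 to 5.02), more than Fabp4 did. Fabp5, the epidermal form, went from TPM 414 to 283, 1.47-fold lower (1.42 to 1.51). The 3 fatty acid binding proteins thus differed in direction, and the intervals of their folds did not overlap. Cidea had 41 and 66 reads and Cideb 16 and 20, with intervals of the fold from 0.961 to 2.18 and from 0.531 to 2.23, below that of Cidec. Ucp2 went from TPM 78.2 to 135, 1.73-fold higher (1.65 to 1.81), whereas Ucp3 had 12 and 7 reads.

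**Figure D3:**
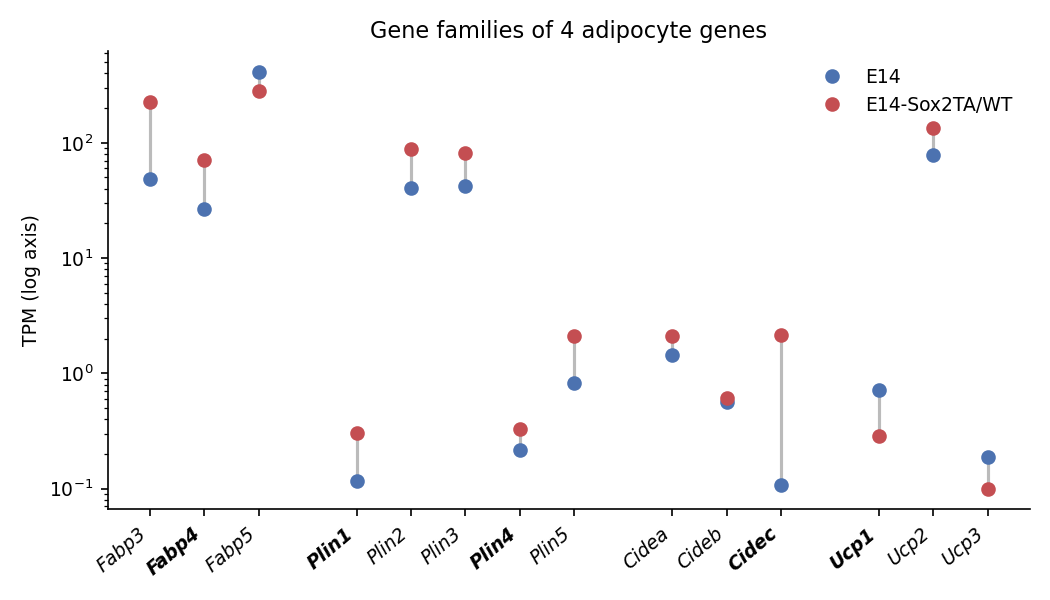
TPM (log axis) of the Fabp, Plin, Cide and Ucp genes in the E14 library (blue) and the E14-Sox2TA/WT library (red), with the adipocyte genes in bold. Plin1, Plin4, Cidec and Ucp1 lie well below Plin2, Plin3 and Ucp2 in both libraries.

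Other genes of the fat cell program, in 7 lists assembled by hand, differed in direction. For the 18558 genes reaching TPM 1, the median log2 ratio was -0.06, with 19.3% above 2-fold higher and 18.9% above 2-fold lower. Of 12 adipokines, receptors and other secreted factors, 6 were above 2-fold higher and 1 lower, with a median of 0.79. Rbp4, the retinol carrier of blood, went from TPM 3.57 to 57.6, and Rarres2, the chemokine chemerin, from 3.79 to 43.2. Cdh13, a receptor that binds adiponectin, went the other way, from 95.4 to 13.4, and Adipor1, another adiponectin receptor, was at 72.1 and 75.4. Of 12 measured liver and visceral endoderm markers, 11 were also above 2-fold higher. The part of such cells in the values of Rbp4 and Rarres2 was not tested.

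The adipogenic transcription factors other than Pparg were mixed. Of 18 measured, 8 had a log2 ratio above 0 and 10 below it. By fold, 3 were above 2-fold higher and 5 lower, with a median of -0.33. The C/EBP factors Cebpa, Cebpb and Cebpd went from TPM 6.11 to 11.7, from 5.26 to 10.7 and from 5.78 to 8.93. Rxra was at 19.9 and 20.3. Ppargc1a went from TPM 5.10 to 0.987, Prdm16 from 3.91 to 1.15 and Ebf2 from 9.24 to 3.28, each above 2-fold lower. Klf4, an early adipogenic factor, went from TPM 6.71 to 20.8. Klf15 went from 21.9 to 5.84 and Zfp423, a factor of committed preadipocytes, from 32.7 to 11.3. Srebf1, which drives lipid synthesis, was at 42.9 and 29.3, and Bhlhe40 at 36.1 and 20.9.

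Among 17 genes of lipid uptake and lipolysis, 3 were above 2-fold higher and 6 lower, with a median of -0.55. Adrb3, the adrenergic receptor that triggers lipolysis in adipocytes, had 14 and 1148 reads, 73.3-fold higher (43.5 to 135). Cd36, a fatty acid translocase, went from TPM 3.18 to 16.6. Slc27a1, a fatty acid transporter, went from 77.4 to 20.3. Gpihbp1 (TPM 53.3 to 22.1), Lmf1 (29.6 to 12.5) and Vldlr (16.5 to 7.99) were also above 2-fold lower. So were Mgll (11.6 to 4.85) and Lipe (9.05 to 4.17). Fabp3, given above, was the remaining gene above 2-fold higher. Among 11 droplet genes, 2 were higher and 2 lower by that measure, with a median of 0.33. Besides Plin2 and Plin3, Cav1, the caveolar coat protein, was at 47.8 and 64.6, and Fitm2, which aids droplet formation, at 15.4 and 7.46.

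Of 17 genes of lipogenesis and triglyceride synthesis, 3 were above 2-fold higher and 5 lower, and the median of -0.06 changed sign with the scaling. Scd2, a desaturase, went from TPM 577 to 235, Fasn, the fatty acid synthase, from 78.7 to 36.2, Acaca, which makes malonyl-CoA, from 24.7 to 9.12, and Acly from 178 to 106. Mogat2, an enzyme of triglyceride resynthesis in the gut, went from 7.66 to 25.5. The summed TPM of this list went from 1053 to 599.8.

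Among 16 measured genes of thermogenic fat, 3 were above 2-fold higher and 6 lower, with a median of -0.17. Its sign changed at a filter of TPM 10 (0.30) and without a TPM filter (0.08). Zic1, also a neural gene, went from TPM 75.8 to 13.0 and Acot2 from 37.7 to 11.8. Ppargc1a, Prdm16 and Ebf2, given above, are also in this list. They were 5.17-fold (4.49 to 5.95), 3.39-fold (2.96 to 3.90) and 2.82-fold (2.53 to 3.15) lower. Cox7a1, a respiratory chain subunit, went from TPM 7.62 to 26.7 and Dio2 from 0.865 to 3.61.

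The list of adipocyte progenitor markers and inhibitors spanned the widest range of the 7 lists. Of 15 measured, 5 were above 2-fold higher and 3 lower, and the median of -0.05 changed sign with the scaling. Ly6a (Sca-1) had 96 and 2570 reads, 24.3-fold higher (19.8 to 30.1), and Dpp4 also had 96 and 2495 reads, 24.3-fold higher (19.8 to 30.1). Dlk1 (Pref-1), which holds preadipocytes undifferentiated and is imprinted, went from TPM 249 to 23.8, 10.5-fold lower (9.92 to 11.0). Cd24a was at 672 and 642. None of these genes is restricted to the fat lineage.

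**Figure D4:**
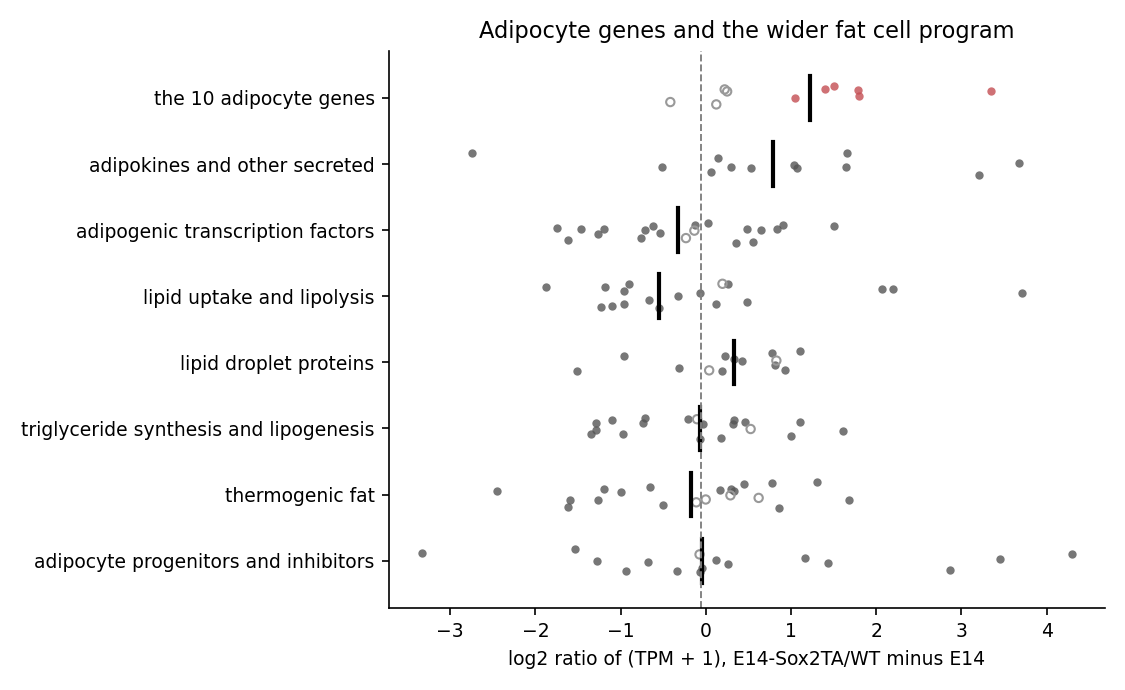
Log2 ratio of TPM with 1 added, E14-Sox2TA/WT minus E14, for each gene of the fat cell lists. Black bars are medians, over all 10 adipocyte genes in the top row and over genes reaching TPM 1 (filled points) in the others, and the dashed line is the median of all such genes, -0.06. Except for secreted factors at 0.79, the medians of the other lists lie between -0.55 and 0.33, and the adipocyte genes are at 1.22.

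Marker genes of 5 other cell types, some of which make Fabp4, Lpl or other members, were read in the same libraries. Of all genes reaching TPM 1, 47.5% had a log2 ratio above 0. Of 16 macrophage markers, 15 did, 5 were above 2-fold higher and 0 lower, and none was at 0 reads in either library. Their summed TPM went from 1188 to 2041, with Lyz2 at 457 and 943, C1qa at 150 and 215 and C1qc at 164 and 212. Of 14 endothelial markers, 12 had a log2 ratio above 0, but 3, or 21.4%, were above 2-fold higher, near the 19.3% of all genes, and none was at 0. Their summed TPM was 150 and 192, with Pecam1 at 27.6 and 31.6, Emcn at 22.6 and 23.2 and Egfl7 at 19.3 and 43.6. The log2 ratios of single macrophage markers ran from -0.55 to 1.41 and those of single endothelial markers from -0.36 to 1.54, beside 1.40 for Fabp4 and 1.79 for Lpl. The highest endothelial value was that of Sox17, which the paper also used as a mesendoderm marker, and Tek came next at 1.21.

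Of 12 skeletal muscle markers, 2 were above 2-fold higher and 4 lower, and none was at 0. Their sum went from 380 to 209, with Mylpf at 185 and 112, Tnnt3 at 34.3 and 22.4 and Tnni2 at 34.2 and 14.1. Of the 12 liver and visceral endoderm markers that reach TPM 1, 11 were above 2-fold higher and 0 lower, and the sum of the list went from 7.82 to 361, with Afp at 0.614 and 151, Apoa1 at 2.45 and 61.1 and Ttr at 1.32 and 41.1. Apoa2, Apoa4 and Apoh were at 0 in E14, and Apoh was at 0 in both. Of the 13 sebaceous and skin epithelium markers that reach TPM 1, 3 were above 2-fold higher and 4 lower. The sum of that list was 249.5 and 377, with Krt5 at 25.1 and 127, Mgst1 at 98.6 and 115, and Fasn as given above, and Ivl was at 0 in E14. The part of these cell types in the values of the adipocyte genes was not tested.

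**Figure D5:**
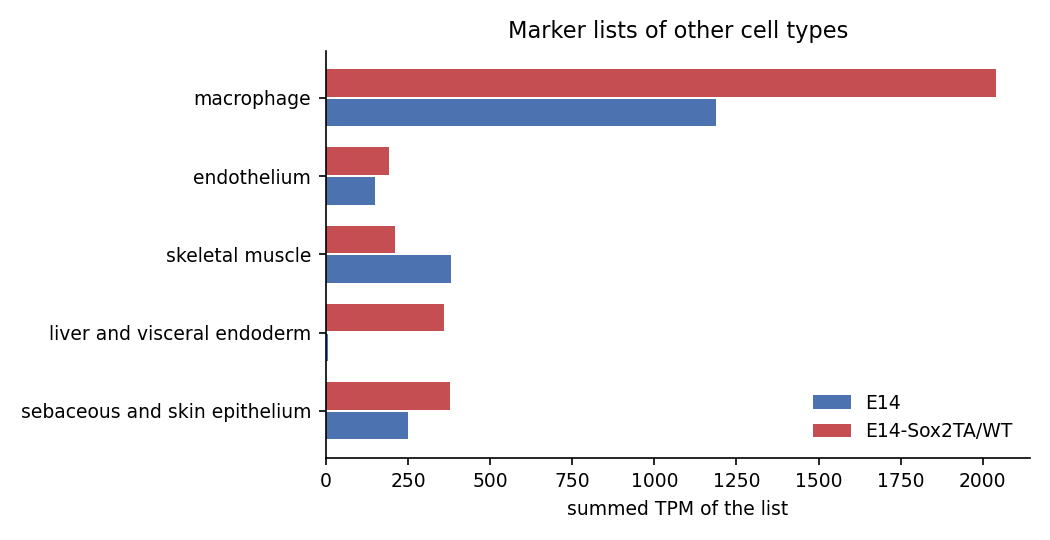
Summed TPM (linear axis from 0) of marker lists of 5 other cell types in the E14 library (blue) and the E14-Sox2TA/WT library (red). Macrophage markers went from 1188 to 2041 and endothelial markers from 150 to 192, while skeletal muscle markers went from 380 to 209.

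The libraries held 50529171 and 49030281 reads on genes, so depth was nearly equal. Mitochondrial genes took 5.17% and 9.70% of the TPM, and scaling reads by library total moved the median log2 ratio of all genes by 0.18. The files do not separate the alleles of Sox2.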

How the data were processed

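RNA-seq was read from 1 E14 and 1 E14-Sox2TA/WT teratoma library, sequenced on an Illumina instrument. The authors deposited whole-number read counts per gene, FPKM (reads per length and depth) and TPM (FPKM brought to a common total), on mm10 with NCBI gene identifiers. The submitters' processing notes name bcl2fastq 2.20.0, Trimmomatic, HISAT2 2.1.0 and StringTie 2.1.3b, without roles or settings, and the builds mm10 and hg19. Positions of 45675 of 45777 genes came from RefSeq on GRCm38.p6, the same build as mm10.

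TPM ratios, E14-Sox2TA/WT over E14, were computed with 95% Clopper-Pearson intervals of the counts, rescaled to the TPM ratio. A count of 0 was set at 3 reads for lower bounds, which leave out the counting error of the other library. Intervals cover counting error only, and reads without molecular identifiers are not independent molecules. With 1 library per group there was no test. The 10 genes and all lists were chosen with earlier results of these data known. Named genes were the 10 members, their closest relatives and neighbours that bear on counting, in each program list the 3 highest in TPM and the 3 largest ratios at TPM 10 or more, and in each marker list the 3 highest, besides markers without reads. Cebpa, Cebpb, Cebpd and Rxra, partners of Pparg, and the endothelial markers Sox17 and Tek were added after their values were seen. So were Ppargc1a, Prdm16, Ebf2, Dio2, Gpihbp1, Lmf1, Vldlr, Mgll and Lipe. No gene was named for a like pattern, since 2 libraries give 1 difference per gene. Transcript length was that implied by deposited counts and FPKM.

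Alternatives were other scalings (FPKM, library totals, TMM factors of edgeR 4.0.16, median-of-ratios size factors, TPM without mitochondrial and hemoglobin genes), centring on all genes, the chromosome or transcript length, pseudocounts, TPM filters and fold thresholds. Scripts (R 4.3.3, Python 3.11.15 with scipy 1.17.1, pandas 2.3.3, numpy 2.4.6) were tested on simulated data.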

Additional observations from a re-analysis of the deposited data

How the results depend on the processing

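No paired analysis was possible because each group holds a single library, and no replicate could be left out. Of 100 alternative values of the 10 genes, 75 stayed within counting error, 24 moved beyond it and 1 changed sign, that of Ucp1, to 0.068 relative to its chromosome. The pseudocount moved genes with few reads most, as adding less to a level near 0 must: at 0.1, the log2 ratios were 6.53 for Cfd, 4.69 for Adipoq and 3.44 for Cidec. The 2 genes called higher became 1 at a fold above 3, for which the share of all genes was not computed. They became 6 of 6 tested at a filter of TPM 1, where 19.3% of all genes were higher. With no filter they became 8 of 10, where 31.4% were higher. These filters test other numbers of genes. The 0 genes called lower became 1 without a filter, where 20.6% of all genes were lower. The median log2 ratio of the 10 genes was 1.22 with 1 added to each TPM and 1.79 with 0 counts at their bound and nothing added. Over the other settings it ranged from 0.99 to 1.65, the latter over the 6 genes that reach TPM 1, a setting added after the values were seen, and 4 of these 6 passed through the E14-Sox2TA/WT library alone. Of the 7 other lists, the medians of lipogenesis, thermogenic fat and progenitors changed sign under at least 1 setting. Depth limits how finely the folds of Plin1, Plin4, Lep and Ucp1 are known, with 6 to 58 reads where detected.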
